A study of Rattus norvegicus with 6 samples.

Results

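The genes described here encode the proteasome and the factors that assemble or regulate it. They are the 52 rows, of 23091 in the deposited table, whose symbol starts with Psma, Psmb, Psmc, Psmd, Psme, Psmf or Psmg followed by a digit. The samples were wild-type rat marrow mesenchymal stem cells, adherent stromal cells of bone marrow, held for 7 days in neural differentiation medium. In 3 of them the medium contained CYSP, a treatment that the labels do not spell out, and in 3, named CK, it contained the solvent DMSO. Messenger RNA was sequenced from all 6, and the series asks which genes change when CYSP is used to drive the cells towards neurons. Whether replicates were separate cultures or animals is not stated, so p-values reflect variation between samples that may be only technical.

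The proteasome is the protease that degrades proteins tagged with ubiquitin. Its barrel-shaped core particle has outer rings of alpha subunits, which gate the channel, and inner rings of beta subunits, of which Psmb5, Psmb6 and Psmb7 carry the catalytic sites. A regulatory particle of ATPases (Psmc) and non-ATPase subunits (Psmd) binds, unfolds and feeds in the substrate. In immune cells, and in other cells exposed to interferon gamma, Psmb8, Psmb9 and Psmb10 are built in place of Psmb5, Psmb6 and Psmb7 to form the immunoproteasome, which cuts peptides suited to MHC class I.

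Of the 52 rows, 45 had enough reads to be tested. The 7 others comprised further identifiers of Psma2 (1), Psmb6 (2) and Psmd8 (1), the pseudogene Psme1-ps1, the testis-type alpha subunit Psma8, and the chaperone gene Psmg4. All but Psma8, Psmg4 and 1 Psmb6 copy had 0 counts in every sample. Psma8 had 0 counts over CYSP and 3 over CK, the Psmb6 copy had 4 over CYSP and 0 over CK, and Psmg4 had 22 over CYSP and 15 over CK. Members took up 0.297% to 0.302% of all counts in CYSP samples and 0.344% to 0.346% in CK samples. Total counts were 15060933 to 17040293 in CYSP samples and 15459099 to 17244700 in CK samples.

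The cultures expressed marrow stromal genes, with all 10 listed markers tested, of which 5 rose and 5 fell. That is 50% in each direction, against 38.2% higher and 37.8% lower among all genes tested. Pdgfra, a growth factor receptor, had 605 ± 7.93 CPM in CYSP and 243 ± 20.1 CPM in CK, whereas Col1a1, a collagen chain, had 9668 ± 436 CPM in CYSP and 40665 ± 960 CPM in CK (CPM, the read count over the TMM-scaled library size, mean ± SD, n = 3 each). Macrophage and leukocyte markers were present in both groups. All 18 listed were tested, and their summed level was 751 to 758 CPM in CYSP and 1970 to 2225 CPM in CK. Of the 18, 13 fell, 2 rose (Mrc1 and Cd53) and 3 did not pass (Cd14, C1qb and C1qc). That is 72.2% lower and 11.1% higher, against 37.8% and 38.2% of all genes tested. None of them was at 0 in all samples, though Cd74 had 0.0405 ± 0.0701 CPM in CYSP against 4.93 ± 0.573 CPM in CK. Of 10 neuronal markers 7 stayed under the count filter, and of these Rbfox3 and Elavl4 had 0 counts in every sample. Stmn2 had 39 counts over CYSP and 0 over CK, Nefm 29 and 5, and Syp 23 and 12. In these untested genes all CYSP samples lay above all CK samples in CPM. Elavl3 had 2 counts over CYSP and 0 over CK, and Nefl 0 and 3. Of the 3 tested, Tubb3, a neuronal tubulin, had 37.8 ± 2.59 CPM in CYSP and 8.67 ± 1.07 CPM in CK, while Map2 and Dcx fell. Map2, a neuronal microtubule protein, had 1.35 ± 0.19 CPM in CYSP and 4.27 ± 0.352 CPM in CK, and Dcx, a marker of young neurons, 0.0658 ± 0.0684 CPM in CYSP and 1.58 ± 0.414 CPM in CK. The part of these marker genes in the results below was not tested. In bulk RNA, fewer cells of a type and less RNA per cell cannot be told apart.

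Most proteasome genes differed little between the groups, and those that differed were mostly lower in CYSP. With the quasi-likelihood F-test of edgeR and p-values adjusted over all genes (Benjamini-Hochberg), 21 of the 45 tested members fell, 5 rose and 19 did not pass. That is 57.8% called, against 76.1% of the 12623 genes tested. By direction, 46.7% of the members fell, against 37.8% of all genes, and 11.1% rose, against 38.2% of all genes. DESeq2 called 5 members higher and 20 lower, against 36.2% and 35.7% of all genes (72% in total). The median log2 fold change (CYSP over CK) was -0.11 for the members and 0.0046 for all genes, with 27 members below 0, against 49.7% of all genes. The median absolute value was 0.24 for the members and 0.53 for all genes. Only Psmb10 changed by 2-fold or more, which is 2.22% of the members, against 27.9% of all genes.

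The groups did not overlap in 30 members, against 77% of all genes, with all CYSP samples below all CK samples in 24 (38.2% of all genes) and above them in 6 (38.8% of all genes). When counts were scaled by library size alone, 3 members rose and 27 fell, against 34.4% and 41.9% of all genes (76.3% in total), as Psmb3 and Psmd3 lost their calls and Psma2, Psmb6, Psmb7, Psmd1, Psmd2 and Psmd14 were also called lower. Those counts depend on the small spread between samples. The coefficient of variation estimated in common over genes was 0.0393. A further fit assumed 0.2 for every gene and used a likelihood-ratio test in place of the F-test. In it Psme2 alone remained higher and Psmb10, Psmc2 and Psmd8 remained lower, while 24.6% of all genes were called higher and 22.2% lower (46.8% in total).

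**Figure D1:**
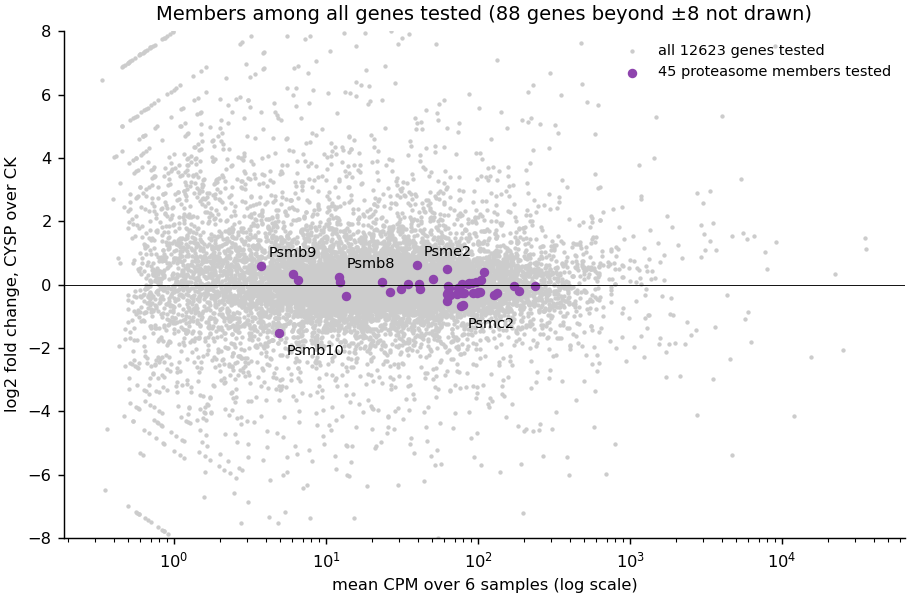
Log2 fold change (CYSP over CK) against mean CPM over the 6 samples on a log axis, with grey points for the 12623 genes tested and purple points for the 45 tested members. The members lie close to the zero line, between -1.54 for Psmb10 and 0.61 for Psme2, and 88 genes beyond ±8 are not drawn.

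The 3 immunoproteasome subunits did not move together. Psmb10, the inducible counterpart of the trypsin-like subunit Psmb7, fell by 65.7%, while Psmb8 and Psmb9 did not pass the test. All 3 were scarce relative to their constitutive partners. The annotated promoters of Psmb10 and Psmb8, and that of Psme2, an activator subunit described below, each hold the core letters of an interferon-stimulated response element (GAAA, any 2 bases, then GAAA, searched on both strands). They are printed because these 3 interferon-linked genes gave 3 different outcomes: Psmb10 fell, Psmb8 did not pass and Psme2 rose. Each is 300 bases from RefSeq (build GRCr8), from 250 before to 50 after the annotated start, 5′ to 3′ on the gene's strand, with the matches in capitals. Psmb10 lies at chr19:50743243-50743542, Psmb8 at chr20:4656982-4657281 and Psme2 at chr15:33052702-33053001, all on the minus strand.
Psmb10: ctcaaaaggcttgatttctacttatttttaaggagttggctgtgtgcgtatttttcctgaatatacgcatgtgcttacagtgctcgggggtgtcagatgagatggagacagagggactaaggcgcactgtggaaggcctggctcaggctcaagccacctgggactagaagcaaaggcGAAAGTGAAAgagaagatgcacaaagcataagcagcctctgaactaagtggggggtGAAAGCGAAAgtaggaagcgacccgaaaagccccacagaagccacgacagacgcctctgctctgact
Psmb8: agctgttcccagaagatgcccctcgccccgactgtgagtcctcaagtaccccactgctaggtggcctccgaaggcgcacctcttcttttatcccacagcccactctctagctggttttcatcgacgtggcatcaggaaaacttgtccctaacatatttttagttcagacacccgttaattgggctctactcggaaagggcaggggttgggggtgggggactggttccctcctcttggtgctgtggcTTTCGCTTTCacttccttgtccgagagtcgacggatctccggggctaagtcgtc
Psme2: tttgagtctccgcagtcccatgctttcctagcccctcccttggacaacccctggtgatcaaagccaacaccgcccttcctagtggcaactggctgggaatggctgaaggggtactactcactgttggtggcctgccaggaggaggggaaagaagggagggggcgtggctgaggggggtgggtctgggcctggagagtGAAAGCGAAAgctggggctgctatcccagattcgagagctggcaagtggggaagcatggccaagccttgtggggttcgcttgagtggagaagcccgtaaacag

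Psmb10 had matches starting 73 and 17 bases before the annotated start, Psmb8 had one on the other strand starting 4 bases before it, and Psme2 had one 53 bases before it. None overlapped a match of the other motifs searched. The letters were found in 2 of the 3 immunosubunit promoters, in 7 of the 43 member promoters in the table (16.3%) and in 3.92% of all 33469 promoters. Besides the 3 printed, the members with a match were Psma4, Psmb3, Psmd7 and Psmg4. The windows of Psmb9 and of Psme1, the partner of Psme2, held no match. The interferon gamma activation letters TTCNNNGAA were in 4 of the 43 (9.3%), Psmb8 among them, against 8.87% of all promoters. A match is a description of letters and not of a binding site.

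Psmb10 had 44, 33 and 38 counts in the CYSP samples, against 132, 120 and 115 counts in the CK samples. All CYSP samples lay far below all CK samples. Its level was 2.5 ± 0.236 CPM in CYSP and 7.31 ± 0.319 CPM in CK, a log2 fold change of -1.54 (SE 0.192, edgeR adjusted p = 3.24e-11), and the call held in every alternative fit, with values between -1.63 and -1.19. Of the 18 macrophage and leukocyte markers 13 fell beside it (72.2%, against 37.8% of all genes). Among them were Ptprc, the pan-leukocyte CD45, with 21.8 ± 2.63 CPM in CYSP and 62.4 ± 4.06 CPM in CK, and Cd68 with 37.4 ± 0.903 CPM in CYSP and 67.8 ± 1.37 CPM in CK. Mrc1, the mannose receptor of macrophages, was higher instead, with 97.4 ± 2.44 CPM in CYSP and 48.7 ± 3 CPM in CK. Their part in the fall of Psmb10 was not tested.

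Psmb8, the inducible counterpart of the chymotrypsin-like subunit Psmb5, had 213, 177 and 215 counts in the CYSP samples and 209, 201 and 150 in the CK samples. The groups overlapped, and CK replicate 3 was the lowest sample. The log2 fold change was 0.24 (SE 0.121, edgeR adjusted p = 0.0651). The call was gained without CK replicate 2 (0.33, edgeR adjusted p = 0.0236) or without CYSP replicate 2 (0.31, edgeR adjusted p = 0.036).

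Psmb9, the inducible counterpart of the caspase-like subunit Psmb6, varied widely between replicates. It had 84, 86 and 37 counts in the CYSP samples and 38, 41 and 71 in the CK samples. CYSP replicate 3 resembled CK replicates 1 and 2, and CK replicate 3 lay nearer to CYSP replicates 1 and 2. The log2 fold change of 0.58 (SE 0.272) did not pass (edgeR adjusted p = 0.0545). Without CK replicate 3 it was 0.93 (edgeR adjusted p = 0.00171), and without CYSP replicate 3 it was 0.87 (edgeR adjusted p = 0.00105), so single samples decide this call. It also passed with no filter on low counts (0.58, edgeR adjusted p = 0.0144).

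The constitutive partners differed by much smaller amounts. Psmb5 had 43.6, 35 and 38.8 CPM in the CYSP samples and 42.3, 44.8 and 43.8 CPM in the CK samples. CYSP replicate 1 lay within the CK range. Its fall (log2 fold change -0.15, edgeR adjusted p = 0.0358) was lost with DESeq2 (adjusted p = 0.0933) and with a stricter filter on counts (edgeR adjusted p = 0.0561). It was also lost without CK replicate 2 (-0.14) or 3 (-0.15) and without CYSP replicate 2 (-0.075) or 3 (-0.14). Psmb6 had 30.2, 29.9 and 28.6 CPM in the CYSP samples, all below the 33.6, 33.9 and 31.5 CPM of the CK samples. It did not pass (-0.16, edgeR adjusted p = 0.051), but did without CK replicate 3 (-0.19, edgeR adjusted p = 0.031). Psmb6 was also called lower with limma-voom (adjusted p = 0.0484), with no filter on low counts (edgeR adjusted p = 0.0494) and with upper-quartile scaling (edgeR adjusted p = 0.0287). The same held with library size alone (-0.24) and on the FPKM values. Psmb7 had 58.4, 61.9 and 65.4 CPM in the CYSP samples and 63.5, 68.4 and 68.2 CPM in the CK samples, with overlap. It did not pass either (-0.11, edgeR adjusted p = 0.0643), but did without CK replicate 1 (-0.15, edgeR adjusted p = 0.0233) or CYSP replicate 3 (-0.15, edgeR adjusted p = 0.0302). Psmb7 was also called lower with upper-quartile scaling (-0.13), with library size alone (-0.19) and on the FPKM values.

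**Figure D2:**
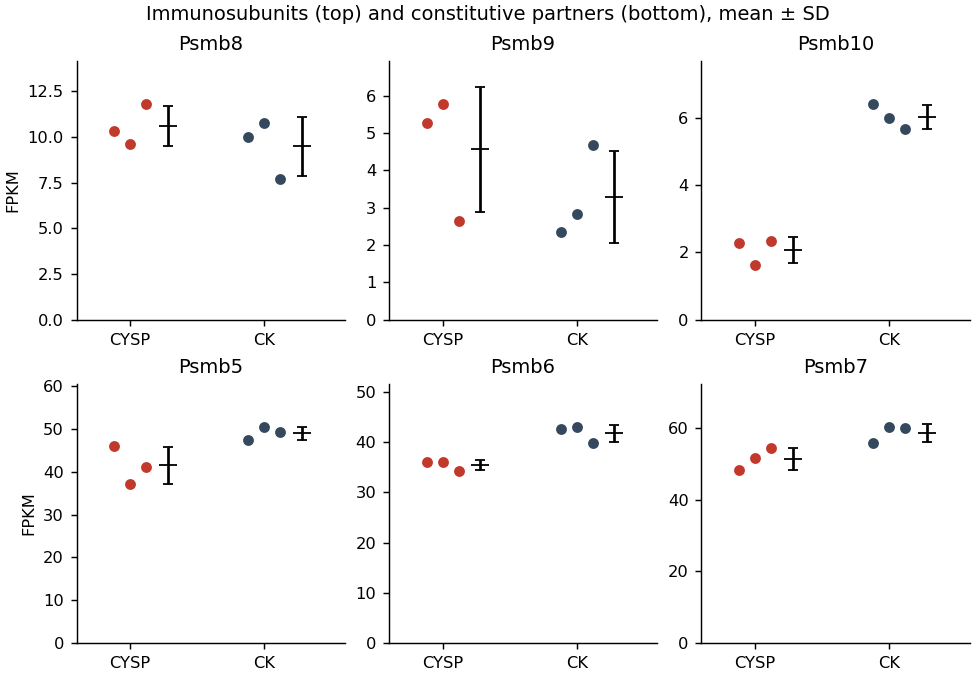
FPKM of the 3 immunosubunits (top) and their constitutive partners (bottom), with a point per sample, CYSP in red and CK in dark blue, and bars for mean ± SD (n = 3 each). Of the upper 3 only Psmb10 has separate groups, and in FPKM all CYSP samples of the lower 3 lie below all CK samples.

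Levels of different genes can be set side by side only per transcript length, as FPKM, the authors' fragments per kilobase of transcript, scaled for depth. The immunosubunits averaged 10.6 (Psmb8), 4.56 (Psmb9) and 2.08 (Psmb10) FPKM in CYSP, against 9.48 (Psmb8), 3.29 (Psmb9) and 6.02 (Psmb10) FPKM in CK. In FPKM, Psmb10 thus stood above Psmb9 in every CK sample and below it in every CYSP sample. The margin was small in CYSP replicate 3 (2.33 against 2.66 FPKM), where Psmb10 had 38 counts and Psmb9 had 37. Psmb5, Psmb6 and Psmb7 averaged 41.5, 35.4 and 51.3 FPKM in CYSP and 49, 41.8 and 58.6 FPKM in CK. The 3 immunosubunits together made up 11.8% ± 0.345 of the FPKM of the 6 catalytic subunits in CYSP and 11.2% ± 0.324 in CK (SD, n = 3 each). The CYSP samples (11.44% to 12.06%) lay just above the CK samples (10.79% to 11.4%). In CPM in place of FPKM the share was 13% to 13.6% in CYSP and 12.4% to 13.4% in CK, and the groups overlapped.

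Taken pair by pair within a sample, Psmb10 reached 4.74%, 3.17% and 4.29% of the FPKM of Psmb7 in the CYSP samples, against 11.5%, 9.95% and 9.45% in the CK samples. Psmb8 reached 22.4%, 25.8% and 28.6% of Psmb5 in the CYSP samples, against 21.1%, 21.3% and 15.6% in the CK samples. Psmb9 reached 14.6%, 16% and 7.75% of Psmb6 in the CYSP samples, against 5.52%, 6.59% and 11.7% in the CK samples. The first 2 ratios separated the groups, in opposite directions, and the third did not. The mean log2 ratio in CYSP minus that in CK was -1.35 for Psmb10 to Psmb7, 0.41 for Psmb8 to Psmb5 and 0.7 for Psmb9 to Psmb6. Two-sided exact permutation tests gave p = 0.1, 0.1 and 0.2 for these 3 pairs, with 0.15, 0.15 and 0.2 after adjustment over them, and 0.1 is the smallest p that 3 samples against 3 allow.

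**Figure D3:**
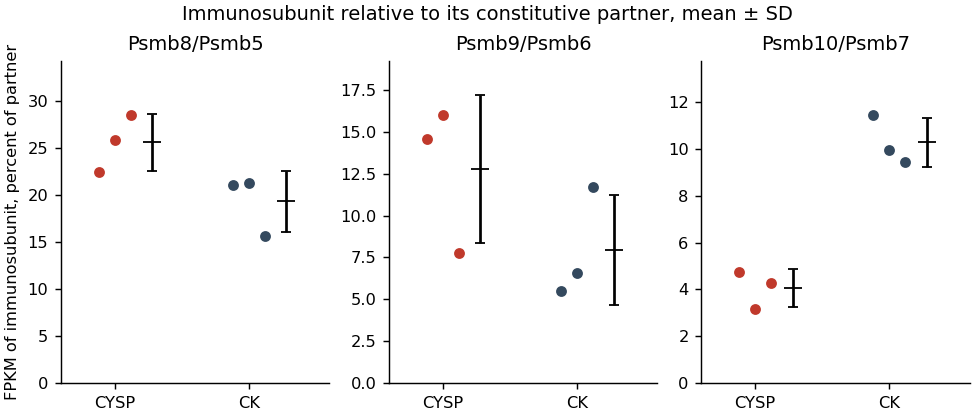
FPKM of each immunosubunit as a percentage of that of its constitutive partner, with a point per sample, CYSP in red and CK in dark blue, and bars for mean ± SD (n = 3 each). Psmb10 relative to Psmb7 is 3.17% to 4.74% in CYSP and 9.45% to 11.5% in CK, and Psmb9 relative to Psmb6 overlaps between the groups.

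All 6 ATPase subunits of the regulatory particle fell, against 37.8% of all genes. All CYSP samples lay below all CK samples for each of the 6, against 38.2% of all genes. The log2 fold changes of these 6 were -0.69 to -0.26, with a median of -0.32. Their summed level was 484 ± 5.22 CPM in CYSP and 627 ± 5.15 CPM in CK. These proteins form the ring that unfolds substrates with the energy of ATP. Psmc2 had 59.2, 60.4 and 57.1 CPM in the CYSP samples, against 97, 95.1 and 92.5 CPM in the CK samples (log2 fold change -0.69, SE 0.0501, edgeR adjusted p = 2.55e-21). Psmc4 had 53, 47.7 and 53.5 CPM in the CYSP samples, against 71.1, 72.7 and 76 CPM in the CK samples (-0.51, SE 0.0556, edgeR adjusted p = 2.4e-13). Psmc1, one of the subunits whose tail opens the gate of the core, had 115, 112 and 113 CPM in the CYSP samples, against 143, 144 and 141 CPM in the CK samples (-0.33, SE 0.0407, edgeR adjusted p = 1.53e-11). In each of these 3 genes the CYSP samples formed a tight cluster below the CK samples. Psmc3, Psmc5 and Psmc6 fell by 0.27, 0.31 and 0.26 on the log2 scale. All 6 calls held in each fit with a sample left out and with DESeq2, and 1, that of Psmc2, held with the assumed coefficient of 0.2.

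The 11 non-ATPase subunits were split. Of these, 5 fell, 1 rose and 5 did not pass, with a median log2 fold change of -0.06. That is 45.5% lower and 9.09% higher, against 37.8% and 38.2% of all genes. Psmd8, a subunit of the lid of the regulatory particle, had 63.2, 61.4 and 61.7 CPM in the CYSP samples, against 100.3, 93.1 and 95.7 CPM in the CK samples. Every CYSP sample lay well below every CK sample (log2 fold change -0.63, SE 0.0496, edgeR adjusted p = 8.88e-20). Psmd4, a receptor for ubiquitin chains, fell by 0.3 on the log2 scale, and the lid subunits Psmd13, Psmd7 and Psmd6 by 0.29, 0.26 and 0.23. Psmd3, another lid subunit, was the one that rose, with 111, 111 and 107 CPM in the CYSP samples and 103, 98.9 and 95.5 CPM in the CK samples (0.15, edgeR adjusted p = 0.00251). Its call was lost when counts were scaled by library size alone (0.062) and on the FPKM values. Psmd14, the deubiquitinase that cuts ubiquitin off the substrate, had 62.3 ± 2.66 CPM in CYSP and 64 ± 0.769 CPM in CK and did not pass (edgeR adjusted p = 0.542). The large scaffold subunits Psmd1 and Psmd2 had log2 fold changes of -0.06 and -0.04 and did not pass, although all their CYSP samples lay below all CK samples. Psmd11 and Psmd12, lid subunits, had 0.01 and 0.02 and did not pass, and these signs turn with other scalings.

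**Figure D4:**
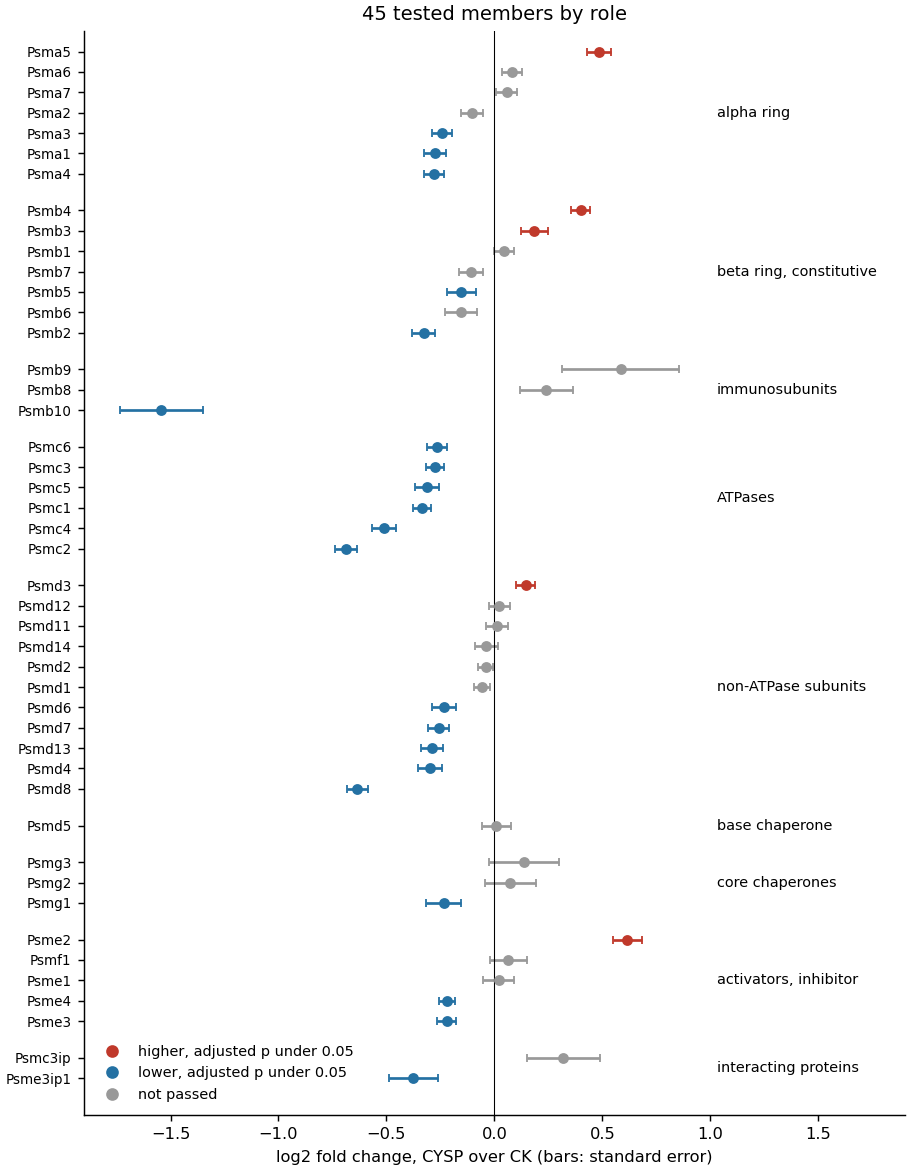
Log2 fold change (CYSP over CK) of the 45 tested members, grouped by role, with bars for the standard error and colours for the call by edgeR's adjusted p. All 6 ATPases lie left of zero, between -0.69 and -0.26, whereas the rings of the core particle and the non-ATPase subunits lie on both sides.

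The core particle was divided within each ring. Of the 7 alpha subunits 3 fell, 1 rose and 3 did not pass, with a median log2 fold change of -0.1. That is 42.9% lower and 14.3% higher, against 37.8% and 38.2% of all genes. Psma1, Psma3 and Psma4 fell by 0.28, 0.24 and 0.28 on the log2 scale. Psma5 rose, with 70.2, 78 and 71.3 CPM in the CYSP samples, against 49.3, 54 and 53.8 CPM in the CK samples. No CYSP sample came near the CK range (log2 fold change 0.48, SE 0.0557, edgeR adjusted p = 2.26e-12). Psma6 and Psma7 had 0.08 and 0.06 and did not pass, with signs that turn when counts are scaled by library size alone. Psma6 passed with the stricter filter on counts (0.10, edgeR adjusted p = 0.0473). Psma2 had -0.1 and did not pass (edgeR adjusted p = 0.0589), but did without CK replicate 2 (-0.15, edgeR adjusted p = 0.00998). It was also called lower with no filter on low counts (-0.11), with upper-quartile scaling (-0.12), with library size alone (-0.19) and on the FPKM values.

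Of the 7 constitutive beta subunits 2 fell, 2 rose and 3 did not pass. That is 28.6% in each direction, against 37.8% lower and 38.2% higher among all genes. Psmb4, a subunit without a catalytic site, rose, with 126, 122 and 124 CPM in the CYSP samples, against 90.9, 96.6 and 95.4 CPM in the CK samples (log2 fold change 0.4, SE 0.0435, edgeR adjusted p = 2.39e-13). Psmb3, also without a catalytic site, had 51.2, 51 and 58.4 CPM in the CYSP samples and 49.5, 43.8 and 47.6 CPM in the CK samples. The groups were separate by a narrow margin (0.19, edgeR adjusted p = 0.00545). That call was lost without CK replicate 2 (0.13), without CYSP replicate 3 (0.12) and with library size alone (0.1). Psmb2 fell by 0.33 and Psmb5 by 0.15, as described above for Psmb5, and Psmb1 had 0.05 and did not pass. Summed over the ring, the constitutive beta subunits had 460 ± 3.02 CPM in CYSP and 448 ± 11.6 CPM in CK, and the alpha subunits 585 ± 10.6 CPM in CYSP and 611 ± 11 CPM in CK.

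Subunits present in equal numbers in the particle did not have equal RNA levels. Across the 7 alpha genes the mean FPKM spanned 19.8 (Psma2) to 107 (Psma7) in CYSP and 22.5 to 109 in CK, for the same 2 genes. Across the 6 ATPase genes it spanned 25.7 (Psmc4) to 71.5 (Psmc3) in CYSP and 38.8 to 91.6 in CK, again for the same 2 genes. FPKM depends on the annotated transcript length, so these are levels under the authors' annotation.

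**Figure D5:**
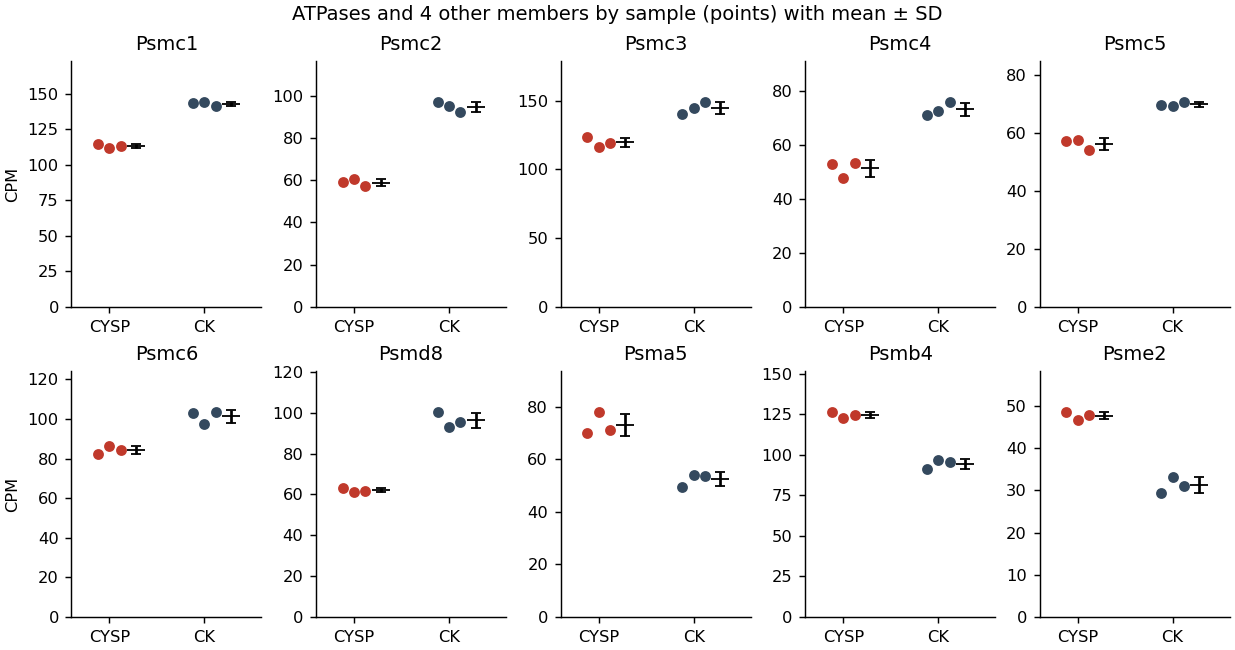
CPM of the 6 ATPase genes and of Psmd8, Psma5, Psmb4 and Psme2, with a point per sample, CYSP in red and CK in dark blue, and bars for mean ± SD (n = 3 each). The 7 genes of the regulatory particle are lower in all CYSP samples and Psma5, Psmb4 and Psme2 are higher.

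Among the alternative caps of the core, Psme2 rose and its partner Psme1 did not pass. Psme1 and Psme2 form the interferon-inducible activator that opens the core without ubiquitin. Psme2 had 48.6, 46.8 and 47.9 CPM in the CYSP samples, against 29.4, 33.2 and 31.2 CPM in the CK samples. All CYSP samples lay above all CK samples (log2 fold change 0.61, SE 0.0671, edgeR adjusted p = 2.8e-13). Psme1 had 32.1, 37 and 35 CPM in the CYSP samples and 33.5, 35 and 33.9 CPM in the CK samples, with overlap (0.02, edgeR adjusted p = 0.806). Psme3, the nuclear activator, and Psme4, a large activator of a single chain, each fell by 0.22 on the log2 scale. Psmf1, an inhibitor of the core, had 0.07 and did not pass (edgeR adjusted p = 0.5).

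Assembly factors changed little, with one gene outside the symbol rule as the exception. Psmg1 and Psmg2 pair to assemble the alpha ring. Psmg1 had 24.4, 25.6 and 22.6 CPM in the CYSP samples and 28.2, 26.3 and 31 CPM in the CK samples (log2 fold change -0.24, edgeR adjusted p = 0.00798), a call lost without CK replicate 3 (-0.17) or CYSP replicate 3 (-0.19). Psmg2 and Psmg3 had 0.07 and 0.14 and did not pass. Psmd5, a chaperone for the ATPase ring, had 0.0097 and did not pass (edgeR adjusted p = 0.899). Psmd10, also called gankyrin, is a further chaperone of that ring and stands in the table under a placeholder symbol. It had 24.2, 23.7 and 24.3 CPM in the CYSP samples, against 8.52, 9.36 and 11.1 CPM in the CK samples. All CYSP samples lay above all CK samples (log2 fold change 1.32, SE 0.105, edgeR adjusted p = 2.51e-19). This was a larger rise than in any of the 45 members. Psmd9 and Psmb11 are not analysed here.

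The rule also took in 2 genes that encode no proteasome subunit. Psmc3ip, a factor of meiotic recombination named after its binding to Psmc3, had 6.76 ± 0.976 CPM in CYSP and 5.43 ± 1.25 CPM in CK (edgeR adjusted p = 0.0815). It passed without CK replicate 2 (log2 fold change 0.51, edgeR adjusted p = 0.0125) or CYSP replicate 3 (0.41, edgeR adjusted p = 0.0463). Psme3ip1, which binds Psme3, had 11, 10.9 and 13.5 CPM in the CYSP samples, against 15.4, 14.4 and 15.9 CPM in the CK samples (-0.38, edgeR adjusted p = 0.00202).

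Of 4 lists of genes that work with the proteasome, 22 of 57 tested genes rose and 22 fell, 38.6% each, against 38.2% higher and 37.8% lower among all genes. When scaled by library size alone 16 rose and 27 fell, against 34.4% and 41.9% of all genes. Among 12 tested proteasome-associated genes 5 rose and 4 fell (41.7% and 33.3%, median log2 fold change -0.04), close to the shares among all genes. Sem1, a small subunit of the lid, had 22.6 ± 1.41 CPM in CYSP and 36.7 ± 2.94 CPM in CK (log2 fold change -0.69). Ecpas, an adaptor of the whole particle, and Txnl1, a thioredoxin-like protein bound to the regulatory particle, fell by 0.47 and 0.46 on the log2 scale. Uchl5, a deubiquitinase, Ube3c, a ubiquitin ligase, and Zfand5, an activator, rose by 0.49, 0.48 and 0.33. Pomp, the maturation factor of the core, had 49.8 ± 2.76 CPM in CYSP and 45.2 ± 2.69 CPM in CK (0.14, edgeR adjusted p = 0.0396). That call was lost with DESeq2 (adjusted p = 0.0904) and without CK replicate 1 (0.12) or 2 (0.1) and CYSP replicate 2 (0.12) or 3 (0.12), and with library size alone (0.06). Adrm1, a ubiquitin receptor, did not pass (edgeR adjusted p = 0.471), but fell with library size alone (-0.13, edgeR adjusted p = 0.044).

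Transcription of proteasome genes is raised by NFE2L1, a membrane-bound factor that must be deglycosylated and cut before it acts, when proteasome capacity is short. Of 11 tested genes of this control 5 rose and 2 fell (median 0.05), which is 45.5% and 18.2%, against 38.2% and 37.8% of all genes. Nfe2l1 had 282 ± 8 CPM in CYSP and 261 ± 2.33 CPM in CK, and its relative Nfe2l2 190 ± 1.84 CPM in CYSP and 173 ± 3.86 CPM in CK, with log2 fold changes of 0.11 and 0.13. Both calls were lost when counts were scaled by library size alone (0.03 and 0.05). Ngly1, the enzyme that removes sugars from NFE2L1, had 14.5 ± 1.55 CPM in CYSP and 34.2 ± 4.31 CPM in CK (-1.25, edgeR adjusted p = 6.08e-20). Of the small MAF partner genes, Mafg rose by 0.37, Maff did not pass (0.05, edgeR adjusted p = 0.718) and Mafk was not found. The related gene Maf rose by 0.71 and Fbxw7, a ligase adaptor, by 0.47, whereas Keap1, the inhibitor of NFE2L2, fell by 0.33. The antioxidant response letters TGACNNNGC, bound by these factors, were in 6 of the 27 promoters of constitutive subunits found in the table (22.2%), those of Psma3, Psmb2, Psmb5, Psmb6, Psmd1 and Psmd3, against 12.1% of all promoters. Of those 6 genes 3 fell, 1 rose and 2 did not pass, against 37.8% lower and 38.2% higher among all genes. The CCAAT box was in 14 of the 27 (51.9%), against 37.5% of all promoters.

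Of 17 tested genes of ubiquitin supply, activation and shuttling 10 fell and 3 rose (median -0.16), which is 58.8% and 17.6%, against 37.8% and 38.2% of all genes. Vcp, the ATPase that extracts ubiquitinated proteins, had 323 ± 4.25 CPM in CYSP and 474 ± 7.84 CPM in CK (log2 fold change -0.55). The shuttle factors Rad23b and Ubqln2, which carry ubiquitinated proteins to the proteasome, fell by 0.58 and 0.73. Uba1, the main ubiquitin-activating enzyme, rose by 0.26 and the ubiquitin gene Ubb by 0.19. Rps27a, a ubiquitin and ribosomal protein fusion, rose by 1.44 with only 12.2 ± 2.17 CPM in CYSP and 4.49 ± 0.9 CPM in CK, and its reads may be split with near-identical copies.

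Of 17 tested genes of MHC class I peptide loading and its regulators 9 rose and 6 fell (median 0.09), which is 52.9% and 35.3%, against 38.2% and 37.8% of all genes. B2m, the light chain of MHC class I, had 883 ± 3.25 CPM in CYSP and 428 ± 16.9 CPM in CK (log2 fold change 1.05, edgeR adjusted p = 2.98e-48). Nlrc5, the transactivator of MHC class I genes, had 3.44 ± 0.511 CPM in CYSP and 0.519 ± 0.0422 CPM in CK (2.71), and Jak2, a kinase of the interferon gamma receptor, rose by 0.88. The other kinase, Jak1, fell by 0.19, and of the receptor chains Ifngr1 rose by 0.26 and Ifngr2 fell by 0.28. The peptide transporter gene Tap1 rose by 0.32. Irf1, an interferon-induced factor that drives immunoproteasome genes, had 8.64 ± 0.827 CPM in CYSP and 17.5 ± 1.69 CPM in CK (-1.02, edgeR adjusted p = 1.54e-12), and Irf9 and Tapbp fell by 0.83 and 0.8. Ifng itself had 0 counts in all 6 samples, where a count of 0 allows 0.169 to 0.205 CPM per sample, for counting error only. Macrophage and leukocyte markers moved beside this list too, mostly down, with the counts given above.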

How the data were processed

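Polyadenylated RNA from 6 samples (3 CYSP, 3 CK) was sequenced. RSEM, StringTie 1.3.1, HISAT2 and fastp 0.18.0 are named in the submitters' processing notes without their roles. Which genome build, counting tool and strand setting served was not given in the sources used here. Reads of overlapping genes may therefore not be told apart. The deposited table gives raw read counts and FPKM per sample, per the file headers, with the authors' mean FPKM, log2 fold change of those means and p-value. If RSEM made the deposited counts, they are rounded estimates. By the authors' deposited table, 26 of the 45 tested members were lower and 3 higher at an adjusted p-value under 0.05. That is 57.8% and 6.67%, against 38.7% and 28.1% of the 12623 genes. The headers do not say which values the authors' test used.

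Samples were grouped by title. Genes were tested with edgeR 4.0.16 in R 4.3.3 (filterByExpr, TMM, robust glmQLFit, glmQLFTest), with Benjamini-Hochberg adjustment over 12623 genes and a threshold of 0.05. Standard errors came from the fold change and its F statistic. Depth allowed 3 counts to stand for 0.169 to 0.205 CPM. The members and lists were chosen with earlier results of these data known. Values per sample are given for the catalytic subunits and up to 6 members per direction with the largest called change and at least 1 CPM, and list genes are the largest 3 per direction plus a fixed set, of which a selection is printed. Psmd10 was found by its description in the table, after the values were seen. Promoters (43 of the members) came from RefSeq, GRCr8. Alternatives were other scalings and filters, DESeq2 1.42.0, limma 3.58.1 (voom, and trend on log2(FPKM + 1) and log2(FPKM + 0.1) at a mean FPKM of at least 0.5), each sample left out, a replicate block and an assumed coefficient of variation (edgeR likelihood-ratio test). The procedure was tested on simulated data.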

Additional observations from a re-analysis of the deposited data

How the results depend on the processing

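With the assumed coefficient of variation of 0.2, 3102 genes were higher and 2801 lower, against 4828 and 4772 as reported, 1 member was higher and 3 lower, and 6 list genes were higher and 8 lower. Library size alone left 3 members higher, as did limma-trend on log2(FPKM + 1) and on log2(FPKM + 0.1). In these 3 fits the members' median log2 fold change was -0.19, -0.19 and -0.19, against -0.11 as reported, and all genes shifted by -0.083, -0.080 and -0.083. With a sample left out, the median was -0.14 to -0.096, 5 to 6 members were higher and 20 to 22 lower, 4706 to 4751 genes were higher and 4621 to 4687 lower. The CYSP minus CK log2 ratio was -1.47 to -1.19 for Psmb10 to Psmb7, 0.27 to 0.51 for Psmb8 to Psmb5 and 0.47 to 1.02 for Psmb9 to Psmb6, and the immunosubunit share differed by 0.49 to 0.88 percentage points, against 0.68 as reported and 0.35 in CPM, where the groups overlapped. The alternatives for the lists and the share were added after the data were seen.

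Changes of sign befell only genes that did not pass. With library size alone they were Psma6 (-0.00094), Psma7 (-0.026), Psmb1 (-0.038), Psmd11 (-0.072), Psmd12 (-0.060), Psmd5 (-0.073), Psme1 (-0.063), Psmf1 (-0.018) and Psmg2 (-0.0099). The same genes turned on log2(FPKM + 1), at -0.0014, -0.026, -0.062, -0.13, -0.064, -0.070, -0.062, -0.014 and -0.0054, and on log2(FPKM + 0.1), at -0.0015, -0.026, -0.062, -0.14, -0.065, -0.073, -0.064, -0.014 and -0.0053. With the upper quartile Psmd11 (-0.0078) and Psmd5 (-0.0092) turned. With a sample left out, the range was -0.028 to 0.068 for Psmd11, -0.0045 to 0.061 for Psmd12, -0.032 to 0.031 for Psmd5, -0.0057 to 0.19 for Psmg2, -0.024 to 0.076 for Psme1, -0.019 to 0.25 for Psmg3 and -0.093 to 0.023 for Adrm1. The cause was not tested.

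Same-numbered samples did not deviate together (correlations of -0.00063, 0.019 and -0.0089), so the numbers were not taken to pair them. With the replicate block 5 members were higher and 21 lower, with 4773 genes higher and 4712 lower, and no call of a member changed. Low counts limit Psmb9, Psmb10 and Psmg4.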

Other observations

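The KEGG term Proteasome of the deposited annotation marked 56 rows, of which 44 were chosen by the symbol rule. Of the 8 members without it, Psma3 is a core subunit, and the others are the chaperones Psmd5 and Psmg1 to Psmg4 and the interacting proteins Psmc3ip and Psme3ip1. Of the 12 rows with the term that the rule left out, only Sem1, Adrm1 and Pomp had counts. The rows without counts include the 4 rows of the table with such symbols in capitals (PSMA, PSMB).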
